A study of Mus musculus with 6 samples.

Results

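The sodium pump subunits and their small FXYD regulators were followed in kidney collecting duct cells given a vasopressin analog. The members were 8 genes listed by symbol: the beta subunits Atp1b1, Atp1b2 and Atp1b3, and the regulators Fxyd2, Fxyd3, Fxyd4, Fxyd5 and Fxyd6. Every probe set whose annotation named exactly 1 of these genes was taken. This gave 12 probe sets of 6 genes, out of 28225 probe sets that were not controls. Atp1b2 and Fxyd6 matched no probe set of the table and were not analysed here. A probe set is a group of short DNA probes on the array that together report 1 transcript or a few related ones.

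The cells were mpkCCD clone 11, an immortalised line of mouse cortical collecting duct origin, so all samples come from 1 clone. They formed a polarized layer on membrane supports and, once electrical resistance across the layer was at least 5 kohm per cm2, were kept for 5 days with 0.1 nM dDAVP or with vehicle alone. dDAVP is a synthetic vasopressin that acts on the V2 receptor. Total RNA of each treatment was put on 3 Affymetrix Mouse Genome 430 2.0 arrays, named biological replicates in the labels. Nothing says whether these came from separate passages, so p-values here speak only of the variation among the 6 samples, which may be technical. The labels name vasopressin control of endogenous aquaporin 2 as the subject, and the single comparison is dDAVP against vehicle.

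The sodium pump, or Na,K-ATPase, sits in the basolateral membrane of epithelial cells and moves sodium out of the cell and potassium in. Its alpha subunit carries out transport and hydrolyses ATP, its beta subunit is needed for folding and delivery to the membrane, and FXYD proteins are single-span membrane proteins that bind the pump and adjust its affinity for ions. In collecting duct principal cells the pump drives the reabsorption of sodium that enters through the apical channel ENaC. Probe sets for alpha subunits were not analysed here.

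The medians of the 6 arrays differed by at most 0.043 log2 units, and any pair of arrays correlated at 0.996 to 0.998 across probe sets. Of 10 measured markers of principal cells and collecting duct, 10 lay above the background level, which was set at 3.56 log2 units, the 95th percentile over 10 probe sets of olfactory receptors. The same held for 6 of 6 epithelial markers and for 3 of 3 measured intercalated cell markers (Atp6v1b1 at 7.31, Aqp6 at 6.55 and Atp6v0a4 at 6.10). Markers of other cell types were partly above it: 2 of 3 measured for proximal tubule (Lrp2 at 8.30 and Kap at 5.08, but not Aqp1), 1 of 2 for thick limb and distal convoluted tubule (Trpm6 at 5.85, but not Slc12a1), 2 of 3 for leukocytes (Cd68 at 5.56 and Adgre1 at 3.57, but not Ptprc), 1 of 2 for fibroblast and smooth muscle (Col1a1 at 3.63, but not Col3a1) and 0 of 1 for endothelium (Cdh5). Only 3048 of all 28225 probe sets lay at or below that background level, so lying above it is common and does not identify a cell type. Signals of different probe sets depend on their probes, so levels are not ranked between probe sets. Each is compared with itself across treatments, and differences between probe sets of an array are used only for how they changed with treatment. RNA came from whole cell layers, so more RNA per cell and more cells with the transcript cannot be told apart.

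Among the members, Fxyd2 and Fxyd4 rose with dDAVP, each by about 0.6 to 0.7 log2 units, and no other member gene passed the test. The test was limma's moderated comparison of the 6 arrays, with Benjamini-Hochberg adjustment over all 28225 probe sets and 0.05 as the threshold. By probe set, 4 of 12 were higher and 0 lower. Over the whole table, 0.188% of probe sets were called higher and 0.0283% lower. By gene, taking the probe set with the highest mean, 2 of 6 were higher, against 0.259% of 12364 genes. The members were chosen with earlier results of these data known, so these shares are descriptions and not independent support. The median log2 change was 0.23 over the 12 member probe sets and 0.0039 over all probe sets. By the brightest probe set of each gene, it was 0.14 over the 6 members and 0.0117 over all genes.

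**Figure D1:**
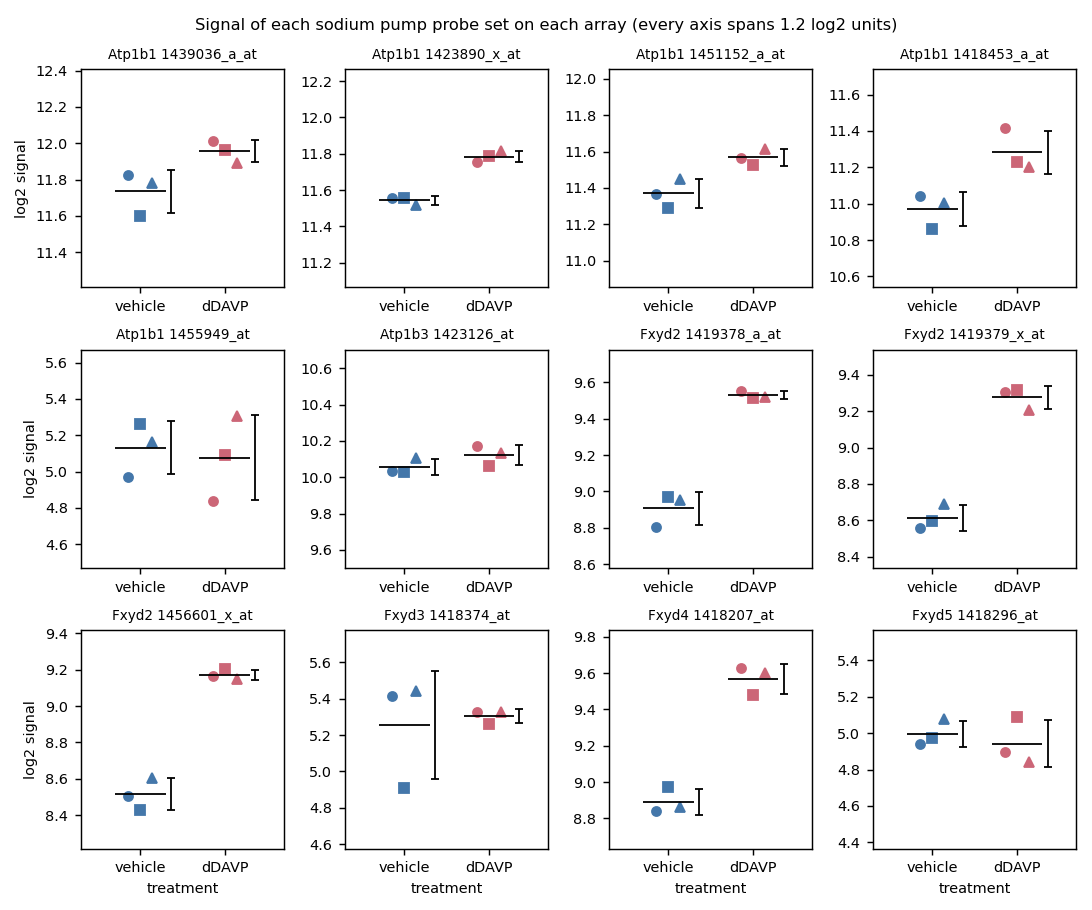
Log2 signal of the 12 member probe sets on each array, with vehicle in blue and dDAVP in red; circles, squares and triangles are replicates 1, 2 and 3, horizontal lines are means and bars are SDs over 3 arrays. For the 3 Fxyd2 probe sets, the Fxyd4 probe set and 4 of the 5 Atp1b1 probe sets, every dDAVP array lies above every vehicle array.

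Fxyd4 encodes the protein also called CHIF, the corticosteroid hormone-induced factor, a regulator found in the collecting duct that raises the pump's affinity for sodium. Its probe set (1418207_at) measured 8.84, 8.97 and 8.86 log2 units on vehicle arrays 1 to 3 and 9.63, 9.48 and 9.60 on dDAVP arrays 1 to 3. The lowest dDAVP array was above the highest vehicle array, and the gap between the groups was wider than the spread within either. The group means were 8.89 ± 0.070 and 9.57 ± 0.080 (SD, n = 3). Fxyd4 was 1.60-fold higher with dDAVP (95% interval 1.43 to 1.79, limma adjusted p = 0.0116). The call ended without vehicle replicate 1 (adjusted p = 0.0738), vehicle replicate 3 (0.0880), dDAVP replicate 1 (0.0704) or dDAVP replicate 3 (0.0726). It held without vehicle replicate 2 (0.0277) or dDAVP replicate 2 (0.0424), and the log2 change stayed between 0.65 and 0.72 throughout.

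Fxyd2 encodes the gamma subunit, the FXYD protein first found with the kidney pump, which lowers its affinity for sodium. Its brightest probe set (1419378_a_at) measured 8.80, 8.97 and 8.95 in vehicle cells and 9.55, 9.51 and 9.52 in dDAVP cells. The dDAVP arrays lay closer together than the vehicle arrays, and the groups did not overlap. The means were 8.91 ± 0.090 and 9.53 ± 0.021 (SD, n = 3), which is 1.54-fold higher (95% interval 1.39 to 1.71, limma adjusted p = 0.0137).

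The other Fxyd2 probe sets showed the same separation. Probe set 1419379_x_at measured 8.56, 8.59 and 8.69 in vehicle cells against 9.31, 9.32 and 9.21 in dDAVP cells, a 1.58-fold rise (95% interval 1.43 to 1.76, limma adjusted p = 0.0106). Probe set 1456601_x_at measured 8.51, 8.43 and 8.61 against 9.17, 9.20 and 9.15, a 1.58-fold rise (95% interval 1.42 to 1.75, limma adjusted p = 0.0106). The first 2 Fxyd2 probe sets are annotated to the same transcript record, and the suffix x marks probes that may also bind other transcripts. The 3 probe sets therefore repeat a measurement of 1 gene and are not replicates of the treatment. In Fxyd2 and Fxyd4 the intervals of the log2 change overlap, at 0.47 to 0.77 for the brightest Fxyd2 probe set and 0.52 to 0.84 for Fxyd4.

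As with Fxyd4, most fits with 1 array left out ended the Fxyd2 calls, while the log2 change moved little. For 1419378_a_at the log2 change was 0.57 to 0.65 when 1 array was left out. Its call held without vehicle replicate 2 (adjusted p = 0.0352) and ended without vehicle replicate 1 (0.0538), vehicle replicate 3 (0.0818), dDAVP replicate 1 (0.0833), dDAVP replicate 2 (0.0858) or dDAVP replicate 3 (0.0743). For 1419379_x_at the call ended without vehicle replicate 1 (0.0649), dDAVP replicate 1 (0.0704) or dDAVP replicate 2 (0.0751). For 1456601_x_at it ended without vehicle replicate 1 (0.0690) and without dDAVP replicates 1, 2 and 3 (0.0704, 0.0751 and 0.0575). Scaling to the poly-A controls also ended the call of 1456601_x_at (0.0559). Without vehicle replicate 2 all 4 Fxyd2 and Fxyd4 probe sets passed.

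**Figure D2:**
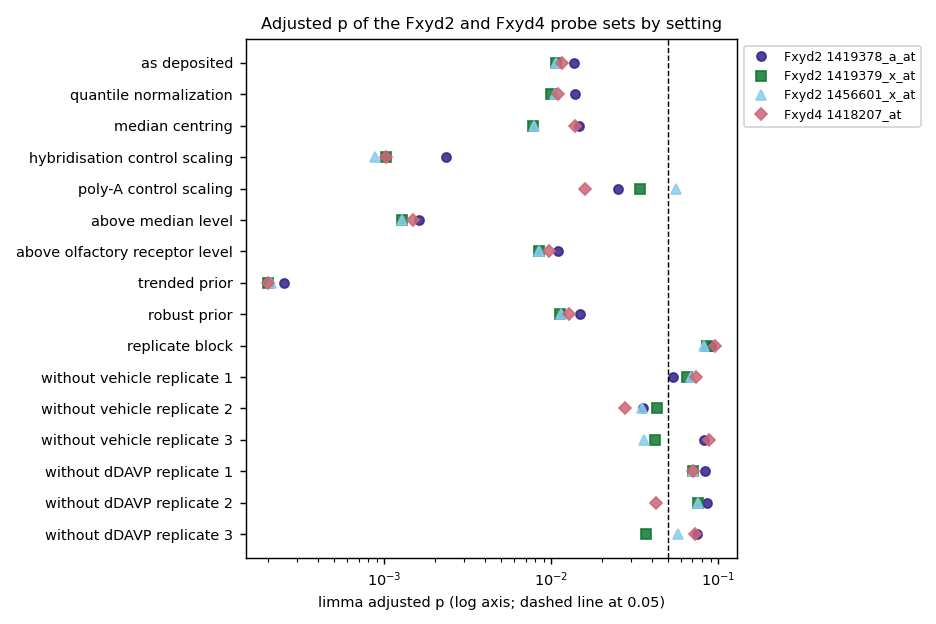
Limma adjusted p (log axis) of the 3 Fxyd2 probe sets and the Fxyd4 probe set under each setting of the analysis, with the threshold of 0.05 dashed. Points lie left of the line under each normalization, filter and prior except 1456601_x_at with poly-A scaling, and mostly right of it when an array is left out or the replicate number is a block.

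Fxyd3 and Fxyd5 did not pass. Fxyd3 encodes Mat-8, a regulator of the same family first described in mammary tumours. Its probe set (1418374_at) measured 5.42, 4.91 and 5.44 in vehicle cells and 5.33, 5.26 and 5.33 in dDAVP cells. Vehicle replicate 2 lay below the other 5 arrays, and the groups overlapped. The log2 change was 0.05 ± 0.14 (SE, 95% interval -0.27 to 0.36, limma adjusted p = 0.964), and it was -0.12 without vehicle replicate 2.

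Fxyd5 encodes dysadherin, a family member with a long extracellular stretch that also affects cell adhesion. Its probe set (1418296_at) measured 4.94, 4.97 and 5.08 in vehicle cells and 4.90, 5.09 and 4.84 in dDAVP cells. The groups overlapped, with dDAVP replicates at both ends of the range. The log2 change was -0.05 ± 0.081 (SE, 95% interval -0.24 to 0.14, limma adjusted p = 0.933). The upper bounds for Fxyd3 and Fxyd5 lie below the lower bounds for Fxyd2 and Fxyd4, which were at least 0.47.

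Atp1b1 encodes the beta1 subunit, the main beta isoform of kidney epithelia. Of its 5 probe sets, 4 were higher on every dDAVP array than on any vehicle array, by 1.15-fold to 1.24-fold, and none passed the test (0 of 5). The brightest (1439036_a_at) measured 11.83, 11.60 and 11.78 in vehicle cells and 12.01, 11.96 and 11.89 in dDAVP cells. Vehicle replicate 2 was the lowest, and the highest vehicle array and the lowest dDAVP array differed by less than the spread among vehicle arrays. The log2 change was 0.22 ± 0.077 (SE, 95% interval 0.04 to 0.40, limma adjusted p = 0.503).

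The tightest Atp1b1 probe set was 1423890_x_at, with 11.56, 11.56 and 11.52 in vehicle cells and 11.75, 11.79 and 11.81 in dDAVP cells. Its log2 change of 0.24 ± 0.055 (SE) had the lowest adjusted p among the beta subunit probe sets (limma adjusted p = 0.267), and it passed only with a trended prior (0.0229). Probe set 1451152_a_at, annotated to the same transcript record, measured 11.37, 11.29 and 11.45 against 11.57, 11.52 and 11.62. Probe set 1418453_a_at had the largest Atp1b1 difference, with 11.04, 10.86 and 11.00 against 11.42, 11.23 and 11.20. Its log2 change was 0.31 ± 0.082 (SE, limma adjusted p = 0.337). That value was 0.46 and passed (adjusted p = 0.0284) when arrays were scaled to the hybridisation controls, a scaling that shifted the median over all probe sets to 0.15 from 0.0039.

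The dimmest Atp1b1 probe set (1455949_at) did not separate the groups. It measured 4.97, 5.26 and 5.16 in vehicle cells and 4.84, 5.09 and 5.30 in dDAVP cells, a log2 change of -0.05 ± 0.13 (SE). Its sign turned without vehicle replicate 2 (0.0098) or dDAVP replicate 1 (0.07). Over the whole table, 8.07% of probe sets had every dDAVP array above every vehicle array and 5.35% had the reverse. Among the members 8 of 12 did so in the first direction and 0 in the second, and by the brightest probe set 3 of 6 genes did, against 10.1% of all genes. Since 4 of those 8 probe sets report Atp1b1 and 3 report Fxyd2, the count by gene is the one to read.

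Atp1b3 encodes the beta3 subunit, a widely expressed isoform. Its probe set (1423126_at) measured 10.03, 10.03 and 10.11 in vehicle cells and 10.17, 10.06 and 10.14 in dDAVP cells. The groups overlapped, since dDAVP replicate 2 fell within the vehicle range. The log2 change was 0.06 ± 0.061 (SE, 95% interval -0.08 to 0.21, limma adjusted p = 0.874).

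**Figure D3:**
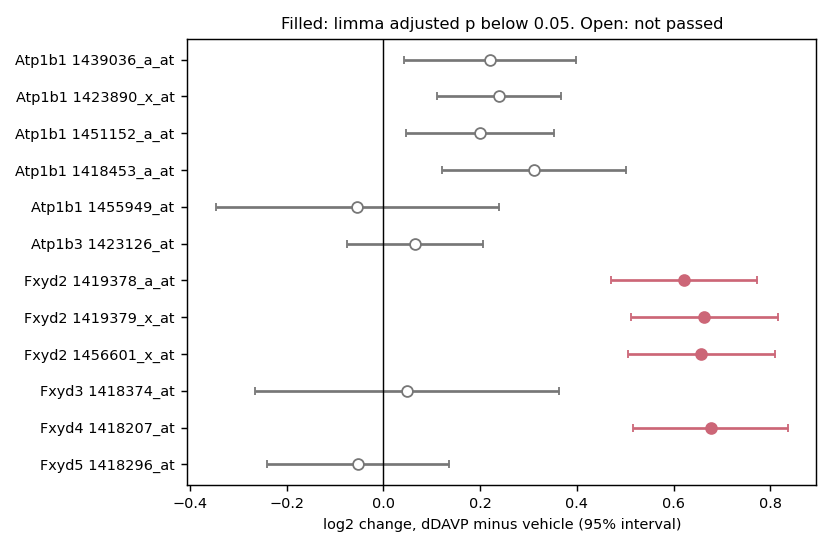
Log2 change, dDAVP minus vehicle, of each member probe set with its 95% interval from the moderated fit; filled points passed at adjusted p below 0.05. The 4 filled points, at 0.62 to 0.68, belong to Fxyd2 and Fxyd4, and the open points of Atp1b1 reach at most 0.31.

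A difference between probe sets of the same array is unchanged when all log2 values of that array are shifted by the same amount. Each member's brightest probe set was therefore expressed relative to that of Atp1b1 on the same array, with the vehicle mean set to 0. For Fxyd4 the values were -0.14, 0.21 and -0.07 in vehicle cells and 0.46, 0.36 and 0.55 in dDAVP cells. For Fxyd2 they were -0.19, 0.19 and 0.0002 against 0.37, 0.38 and 0.46. In both genes all dDAVP arrays lay above all vehicle arrays, and vehicle replicate 2, where Atp1b1 was lowest, stood nearest to them.

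The signal of Fxyd4 relative to Atp1b1 was higher with dDAVP by 0.46 log2 units and that of Fxyd2 by 0.40 (exact two-sided permutation p = 0.1 each, the smallest that 3 against 3 arrays allow). Adjusted over the 5 such comparisons, each had p = 0.25 in this exact test, so neither could pass 0.05. Relative to Atp1b1, the change was -0.16 for Atp1b3 (exact p = 0.2), -0.17 for Fxyd3 (exact p = 0.3) and -0.27 for Fxyd5 (exact p = 0.2), with overlapping groups in each.

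**Figure D4:**
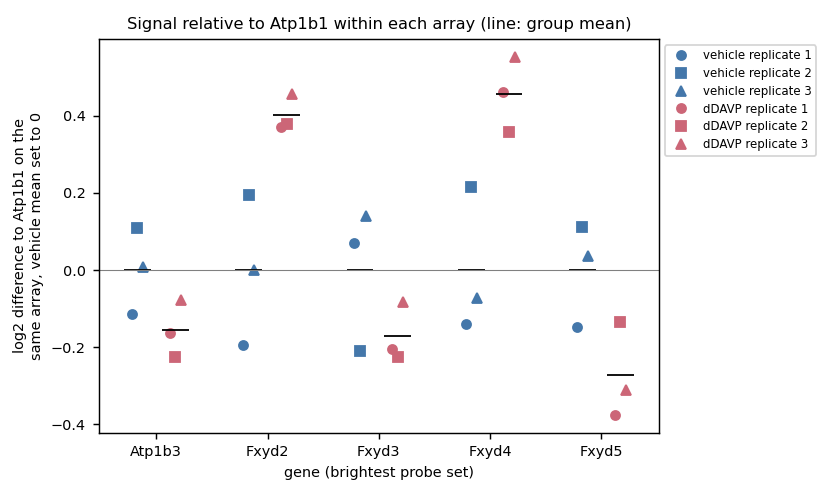
Log2 signal of each member's brightest probe set minus that of Atp1b1 on the same array, shifted so that the vehicle mean is 0; blue is vehicle, red is dDAVP, symbols are replicates and lines are group means. For Fxyd2 and Fxyd4 the dDAVP arrays sit between 0.36 and 0.55, above all vehicle arrays, while for Atp1b3, Fxyd3 and Fxyd5 the groups overlap.

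The RefSeq promoter table (GRCm38.p6) held 5 of the 6 measured members, with 2 start sites for Atp1b3. Fxyd2 had no entry. The 250 bases before the start of Fxyd4, which rose, and of Atp1b1, which did not pass, are shown so that they can be read side by side. The Fxyd4 window is chr6:117937336-117937585 and the Atp1b1 window chr1:164458356-164458605, both on the minus strand and written 5′ to 3′ towards the start site. Capitals mark the GC box GGGCGG on either strand.
Fxyd4: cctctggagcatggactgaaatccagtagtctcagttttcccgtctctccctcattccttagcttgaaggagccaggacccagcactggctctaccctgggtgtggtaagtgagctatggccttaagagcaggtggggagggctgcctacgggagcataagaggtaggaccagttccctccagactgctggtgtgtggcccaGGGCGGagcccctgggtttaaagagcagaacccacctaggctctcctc
Atp1b1: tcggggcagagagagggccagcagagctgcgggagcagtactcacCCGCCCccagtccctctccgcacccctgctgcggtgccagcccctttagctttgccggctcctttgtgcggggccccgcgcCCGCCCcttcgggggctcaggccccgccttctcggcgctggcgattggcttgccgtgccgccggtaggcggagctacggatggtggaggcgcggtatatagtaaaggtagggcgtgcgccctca

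The Fxyd4 window was 58.0% G and C, against 70.4% for Atp1b1. It held 1 GC box, from 48 to 43 bases before the start, and the Atp1b1 window held 2 on the opposite strand. A GC box was present in 32.7% of all 32841 promoter windows of this length. Neither window held the cAMP response element TGACGTCA (1.55% of windows), its core TGACG (17.8%), the steroid hormone response half-site AGAACA (16.1%) or the TATA motif TATAAA (12.4%), all searched on both strands. The core lies within the full cAMP response element. Among the other windows, the second Atp1b3 start had 5 GC boxes and 1 TGACG core, on the opposite strand from 84 to 80 bases before the start. The first Atp1b3 start and the windows of Fxyd3 and Fxyd5 had none of these motifs. These are matches of the exact letters only. Variant forms, such as the letters tatata in the Atp1b1 window, were not searched.

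Genes that handle sodium around the pump were taken from 2 lists of 41 genes, of which 26 were measured. The lists were chosen with earlier results of these data known. Of 22 measured genes of sodium reabsorption and pump regulation, 1 rose and 0 fell, with 17 positive changes and a median of 0.04, against 0.0117 over all genes. Among all 12364 genes, 0.259% were called higher and 0.0324% lower, and 6844 had a positive change. The one that rose was Tmprss4, a membrane serine protease that can activate ENaC, at 5.13, 5.20 and 4.94 in vehicle cells and 5.72, 5.75 and 5.68 in dDAVP cells. Its groups did not overlap and its fold was 1.54 (limma adjusted p = 0.0271). The Tmprss4 call held without vehicle replicate 2 (adjusted p = 0.0429) and ended without any other array (0.0880 to 0.160).

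The remaining genes of this list did not pass. Before adjustment, p was below 0.05 for 6 of the 22 (4 positive changes and 2 negative), against 7.80% of all genes in either direction. Sik1 is a salt-inducible kinase and was named after its values were seen. It measured 6.17, 5.72 and 6.11 in vehicle cells and 6.74, 6.52 and 6.49 in dDAVP cells. The groups were apart but spread widely, and the log2 change of 0.58 ± 0.13 (SE) did not pass (limma adjusted p = 0.227). It passed with the mean of its 2 probe sets (0.45, limma adjusted p = 0.0209), of which the dimmer lay below the background level at 3.42. It also passed with scaling to the hybridisation controls (0.73, limma adjusted p = 0.00448), which moved the median over all probe sets to 0.15.

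The log2 change of the ENaC subunits was 0.02 for Scnn1a, 0.23 for Scnn1b and 0.26 for Scnn1g, none past the threshold (adjusted p = 0.966, 0.674 and 0.397 in limma). Scnn1g encodes the gamma chain of the channel, and its dDAVP arrays all lay above its vehicle arrays, as in 10.1% of all genes. Sgk1, the aldosterone-induced kinase that acts on ENaC and the pump, was at 0.04 ± 0.076 (SE, adjusted p = 0.946). The glucocorticoid receptor Nr3c1 was at -0.17 ± 0.056 and the osmotic regulator Nfat5 at -0.16 ± 0.062, named after their values were seen, and neither passed (adjusted p = 0.464 and 0.561). The change was negative for 5 of 5 Nr3c1 probe sets and 4 of 5 Nfat5 probe sets, and 0 of them passed. The list of pump relatives and partners had 4 of 15 genes measured, Agrn, Atp4a, Nkain1 and Nkain2, with 0 called and a median of -0.06.

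**Figure D5:**
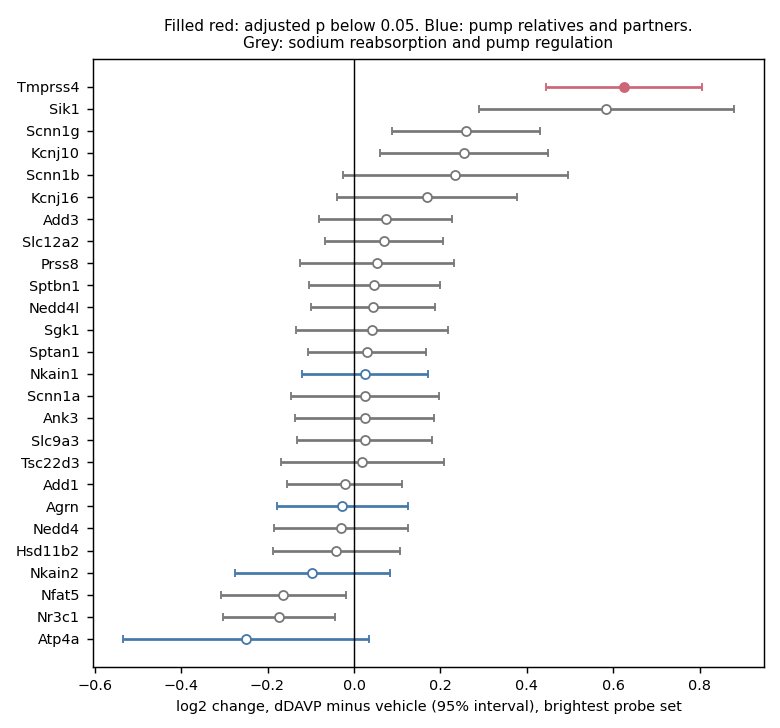
Log2 change, dDAVP minus vehicle, with its 95% interval for the brightest probe set of the 26 measured genes of both sodium handling lists; blue marks pump relatives and partners, and the filled red point passed. Tmprss4, at 0.62, is the only filled point, and Sik1 at 0.58 has the next highest change with a wider interval.

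The genes whose profile over the 6 arrays was most like that of Fxyd2 were sought among 12358 other genes by the root mean square distance between values taken relative to the vehicle mean. The 5 nearest were Tmem45b (a membrane protein, distance 0.020 log2 units), Ccnyl1 (a cyclin Y relative, 0.032), Gsta4 (a glutathione transferase, 0.050), Lbp (the lipopolysaccharide-binding protein, 0.054) and Gprc5b (an orphan receptor, 0.056). Those nearest to Fxyd4 were Tmem45b (0.055), Lbp (0.075), Gprc5b (0.079), Ccnyl1 (0.080) and Bcat1 (a branched-chain aminotransferase, 0.081). In vehicle cells Gprc5b lay just below the background level of 3.56 (mean 3.55). The distance counts the size of the change, so genes that rose by a like amount come first. All of these are descriptions over the same 6 arrays.

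Marker and control levels are given here beside the Fxyd2 and Fxyd4 results. The mean level of the 10 measured principal cell and collecting duct markers was 7.54 to 7.58 in vehicle arrays and 8.05 to 8.11 in dDAVP arrays. That mean includes Aqp2, at a log2 change of 4.15, while the median log2 change of the 10 was 0.09, with 6 positive. Of the 10, 2 were called higher. These were the water channel Aqp2 (17.8-fold, limma adjusted p = 1.66e-07) and the V2 receptor Avpr2 (1.44-fold, limma adjusted p = 0.0271). Each of the 6 fits that left out an array ended the Avpr2 call (adjusted p = 0.0851 to 0.155) and kept that of Aqp2. The mean of the hybridisation controls was 10.61 ± 0.080 in vehicle arrays and 10.46 ± 0.066 in dDAVP arrays (SD, n = 3, exact permutation p = 0.1). With arrays scaled to these controls, the log2 change was 0.77 for 1419378_a_at and 0.82 for Fxyd4. That scaling also moved the median over all probe sets to 0.15 and called 275 of 28225 probe sets higher, against 53 as deposited. Of 7 intercalated cell markers, 3 were measured, and the mean level of these was 6.52 to 6.58 in vehicle and 6.65 to 6.85 in dDAVP arrays. They went both ways and none passed: the log2 change was 0.42 for Atp6v0a4, 0.32 for Atp6v1b1 and -0.08 for Aqp6. All dDAVP arrays lay above all vehicle arrays for Atp6v0a4 and Atp6v1b1, and below them for Aqp6. Among all genes, 10.1% had the first pattern and 5.13% the second. Of 6 markers of the thick limb and distal convoluted tubule, segments known to express Fxyd2, 2 were measured, with a mean level of 4.31 to 4.43 in vehicle and 4.37 to 4.50 in dDAVP arrays, ranges that overlap. Slc12a1 lay below the background level in both groups (2.96 ± 0.078 and 2.90 ± 0.051, SD, n = 3). Trpm6 lay above it (5.76 ± 0.10 and 5.94 ± 0.16, SD, n = 3), with a log2 change of 0.17 that did not pass. The part of these markers and controls in the result was not tested.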

How the data were processed

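The authors deposited log2 signals, 1 per probe set and array. MAS5, RMA and Affymetrix Expression Console 1.1 are named in the submitters' processing notes, with no word on which made the values. Summary over probes can compress the differences of dim probe sets. The table held 28287 probe sets, and 62 controls were left out of the test. Gene names came from the platform annotation, and the 611 probe sets that name several genes were left out (0 of them named a member). Groups came from the sample titles. dDAVP was compared with vehicle over all 28225 probe sets in limma 3.58.1 under R 4.3.3 (lmFit, eBayes, 4 residual degrees of freedom, no covariate), and the code was tested on simulated data. Each gene was read from its brightest probe set, by the mean over 6 arrays. The number of arrays limits the precision. Promoters were read from a RefSeq table. The members and lists were chosen with earlier results of these data known. Text names every member probe set, each list gene that passed, the ENaC genes and Sgk1, and the 5 nearest profiles. Beyond this rule, Sik1, Nr3c1 and Nfat5 were named after their values were seen. Alternatives were other normalizations, filters, priors, a block and leaving out arrays.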

Additional observations from a re-analysis of the deposited data

How the results depend on the processing

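No alternative made a member probe set pass in the lower direction. The 4 member probe sets and 2 member genes called higher became 0 and 0 with the replicate number as a block, and 0 and 0 at a threshold of 0.01. Leaving out 1 array gave 0 to 4 probe sets and 0 to 2 genes. The 1 list gene called higher became 0 with the block, 0 at the threshold of 0.01 and 0 with probe sets above the median level, where the Tmprss4 probe set is left out. It became 2 with scaling to the hybridisation controls and 2 when the probe sets of a gene were averaged, and was 0 to 1 without 1 array. With that average, in which 12364 genes were tested, Fxyd2 (0.65, adjusted p = 0.00191) and Fxyd4 (0.68, adjusted p = 0.00295) passed in limma. Scaling to the hybridisation controls reversed Fxyd5 (0.095) and Atp1b1 1455949_at (0.093), neither of them called. Without 1 array the sign also varied for Fxyd3 (-0.12 to 0.14), 1455949_at (-0.17 to 0.067), Scnn1a (-0.026 to 0.066) and Sgk1 (-0.0052 to 0.11). The changes relative to Atp1b1 were run only without 1 array and with the mean of all Atp1b1 probe sets, not with other normalizations. They kept their sign in these, at 0.30 to 0.50 for Fxyd2 and 0.39 to 0.56 for Fxyd4. The labels do not say whether arrays of the same replicate number were handled together. In deviations from group means, same-numbered arrays correlated at -0.05 to 0.20 and other pairs at -0.21 to 0.17. Of 6 arrays, 3 correlated best with their own number, and so few arrays cannot decide whether a pairing existed. With the block the log2 changes were the same, and the adjusted p of Fxyd4 was 0.0955 and of Fxyd2 1419378_a_at 0.0910. The cause was not tested for the other changes of call. Signals lay above background for all 12 member probe sets, a level that all but 3048 of the 28225 probe sets exceeded.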

Other observations

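The protein-coding genes next to Fxyd4 in the gene order of GRCm38.p6 were looked up after the Fxyd4 result was known. All 4 of the nearest, a pair on each side, were measured and none passed in limma. The log2 change was 0.19 ± 0.063 (SE) for 4933440N22Rik (adjusted p = 0.478), -0.06 ± 0.090 for Hnrnpf, -0.09 ± 0.085 for Rasgef1a and -0.09 ± 0.088 for Csgalnact2. The genes directly beside Fxyd2 and Fxyd5 were not analysed here, and among the next ones out Cep164, near Fxyd2, was at 0.13 ± 0.076 and the epithelial junction gene Lsr, near Fxyd5, at 0.05 ± 0.075. Nme7, directly beside Atp1b1, was at -0.06 ± 0.060, and Blzf1, the next one out, at 0.07 ± 0.082.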
